A study of Rattus norvegicus with 90 samples.

Results

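The tables list 65166 targets for rat liver, kidney, and heart. Of these, 40071 are Ensembl transcripts, and 25095 are genomic intervals named only by chromosome, start, and end. Described here are the 300 intervals with the most kidney-restricted signal. They were scored by the vehicle-treated libraries alone. Each interval's estimated counts were scaled to counts per 1000000 counts assigned to transcripts in the same library (CPM) and averaged per organ. The score was log2 of (kidney + 0.5) over (the larger of liver and heart + 0.5). The 200 intervals with the most counts over all libraries were left out first, which left 24895 to rank. Because vehicle levels in the organs selected the members, differences between organs in vehicle libraries are given as a description with no test.

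All rats were male Sprague-Dawley rats, purchased at 10 weeks of age and fitted with a jugular vein catheter before the experiment. They received 1 intraperitoneal injection of saline (vehicle, 3 ml/kg) or of thioacetamide at 25 mg/kg (low dose) or 100 mg/kg (high dose), and organs were taken 8 or 24 h later. Each of the 18 groups (3 organs, 3 treatments, 2 times) holds 5 libraries, and the study describes 5 rats per group with the organs taken from the same animals. The 8 h rats were without food throughout and the 24 h rats only late in the experiment, so duration and feeding cannot be told apart. Whole kidneys were powdered before RNA isolation, so every kidney library mixes all cell types of the organ. In such bulk RNA, fewer cells of a type and less RNA per cell cannot be told apart.

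As background, genomes are transcribed well beyond annotated genes, and the polyadenylated part of that RNA enters libraries made from poly-A RNA. Long noncoding RNAs, transcription running past the ends of genes, unspliced RNA, and exons missing from an annotation are known sources of such signal, and many of them are restricted to 1 organ. Kidney tubules, which reabsorb filtered solutes and secrete organic compounds, make up most of the mass of the kidney. Thioacetamide is an organosulfur compound that liver enzymes convert to reactive oxides, and it is used mainly as a liver toxicant. The coordinates are those of the files, whose build the submitters' notes give as Rnor_6.0. Which genes lie in or near the intervals, and the sequences of the intervals, were not analysed here.

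Libraries held between 16332764 and 36303248 estimated counts. The share of these that fell to genomic intervals differed widely, from 4.08% (MS-10) to 28.9% (MS-14). Library MS-1 (24 h vehicle, liver) was left out of every step because it is nearly the same as library MS-9 (8 h low dose, liver): 99.96% of 15797 transcripts differed by no more than 1 count. Which of the labels is right is not known, and MS-9 is used here as the treated liver library its label gives. No table used here paired transcript identifiers with genes, so the organ labels were not checked against marker genes. The members' summed level separated the organs in the treated libraries, which had no part in the scores. It was 3784 to 5639 CPM in the 20 kidney libraries. The range was 184 to 322 CPM in the 20 liver libraries and 139 to 232 CPM in the 20 heart libraries.

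The members' scores ranged from 2.80 to 6.99 on the log2 scale, with a median of 3.53 against a median of 0.14 over all intervals. The limit fell in a dense part of the ranking. Just inside it were chr17:23407943-23427942 (score 2.803), chr16:10706575-10721606 (2.798), and chr16:3826271-3846270 (2.798), and just outside it chr18:69819436-69829254 (2.795), chr19:37034786-37046107 (2.794), and chr10:84170408-84181617 (2.790). Members differed widely in abundance, and their mean level in vehicle kidney ran from 3.18 to 107 CPM with a median of 12.2 CPM. In the other vehicle organs the median member stood at 0.205 CPM (liver) and 0.290 CPM (heart). For 235 members both of these means were under 1 CPM. The liver mean was 0 for 7 members and the heart mean was 0 for 6 members. Heart was the higher of the other organs for 191 members. Behind the median member lay 257 counts per vehicle kidney library, with a range over members from 49.0 to 2272 counts. Of the 200 intervals left out as most abundant, 17 would have passed the score limit.

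The interval with the highest score was chr8:33520713-33540712. In the 10 vehicle kidney libraries it lay between 69.7 and 109.004 CPM (84 ± 11.1 CPM, SD, n = 10), against means of 0.0663 CPM in liver and 0.165 CPM in heart. Another 20000-base interval at lower coordinates on the same chromosome, chr8:33478755-33498754, ranked 5th with 53.3 ± 5.44 CPM (SD, n = 10). Between them in rank stood chr1:32236553-32239644 (68.1 ± 20.2 CPM), chr11:67259273-67276956 (77.8 ± 14.1 CPM), and chr20:14025570-14045171 (91.7 ± 18.5 CPM; SD, n = 10 each). The remainder of the 10 highest scores belonged to chr7:141262237-141276812, chr8:49703920-49709976, chr10:19091935-19111934, chr15:26092377-26112376, and chr6:42805519-42825518, with scores between 6.14 and 6.45. All 10 stood far above the limit, with 45 CPM or more in vehicle kidney.

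Levels can be compared between intervals only per base of length, for which the deposited TPM (a relative abundance scaled by effective length) was used. On this scale most members were weak: the median was 0.924 TPM in vehicle kidney, and the quartiles were 0.477 and 2.28 TPM. The highest was chr17:9744921-9745984, the shortest member at 1064 bases, with 53.4 ± 22.6 TPM (SD, n = 10). Its libraries spread from 31.3 to 95.2 TPM. After it came chr1:32236553-32239644 at 22.7 ± 6.58 TPM and chr10:84872483-84874426 at 21.7 ± 4.01 TPM (SD, n = 10). These were followed by chr3:123172377-123175360 (20.9 ± 2.45 TPM), chr7:121435524-121437573 (20.8 ± 2.46 TPM), and chr20:14046957-14049964 (12.7 ± 4.12 TPM). From chr1:32236553-32239644 down to chr7:121435524-121437573 neighbors in this order differed by less than their SD. The 10 were completed by chr10:84139138-84147335, chr20:285444-294749, chr3:9263129-9266621, and chr3:61629129-61633504, which lay between 9.63 and 10.7 TPM. Only chr1:32236553-32239644 was among the 10 highest on both the score and the TPM scale.

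Vehicle rats also differed among themselves. The coefficient of variation over the 10 vehicle kidney libraries had a median of 27.1% over the members and ran from 7.89% to 131%. The most variable member, chr11:8828358-8848357, went from 0 to 19.1 CPM among rats of the same treatment, and chr1:171771782-171791781 from 20.8 to 247 CPM; both were singled out after their values were seen. In the 8 h vehicle kidney group, library MS-100 was the highest of the 5 for 127 of the 300 members. The other ranked intervals also summed highest in MS-100, at 52744 CPM against 39924 to 44251 CPM in the rest of the group. MS-100 was thus high for intervals in general. For how many of all intervals it was highest was not counted.

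By length the members were like the other intervals. Full-length intervals of 20000 bases made up 51.7% of members (155 of 300) and 55.5% of all intervals. Most members stood alone: 252 had no other member within 20000 bases, and the other 48 formed 21 runs of neighbors. The longest run had 5 members in 51292 bases, chr10:84114158-84165449, and the next had 4 members in 79006 bases, chr7:144568081-144647086. The next run held 3 members on the unplaced scaffold KL567939.1, where 3 of all 12 intervals were members (25.0%). By chromosome, the share of intervals that were members went from 2.19% on chromosome 9 and 2.05% on chromosome 20 to 0.425% on chromosome X, and none of the 23 intervals of chromosome Y was a member. For 40 members (13.3%) the nearest interval was also a member, while members made up 1.2% of all intervals. The nearest intervals that were not members (260) had a median score of 0.28, against 0.14 over all intervals, and 20.8% of them scored above 1, against 8.98% of all intervals. These shares are a description of members chosen by score and were not tested.

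The restriction to kidney was then examined in the treated rats, whose libraries the scores had not used. For 263 of the 300 members, every one of the 20 treated kidney libraries lay above every treated liver and heart library. Over all intervals this held for 4.5%. Without MS-9 the count was again 263. In the edgeR quasi-likelihood fit of the 60 treated libraries, 295 members were called higher in kidney than in liver and 299 higher than in heart (adjusted p of at most 0.01 and a natural-log fold change of at least 0.6), where 26.7% and 26.6% of the intervals tested were called higher. No member was called lower in either comparison. Members that are low in liver and heart can pass the filter on low counts through the kidney libraries alone. That favors calls higher in kidney, so these counts are no independent support for the restriction. The members' median log2 difference was 4.31 over liver and 4.21 over heart, against 0.32 and 0.27 over all intervals tested. In the 37 members with overlap, the highest value outside kidney came from a liver library in 25 and a heart library in 12.

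**Figure D1:**
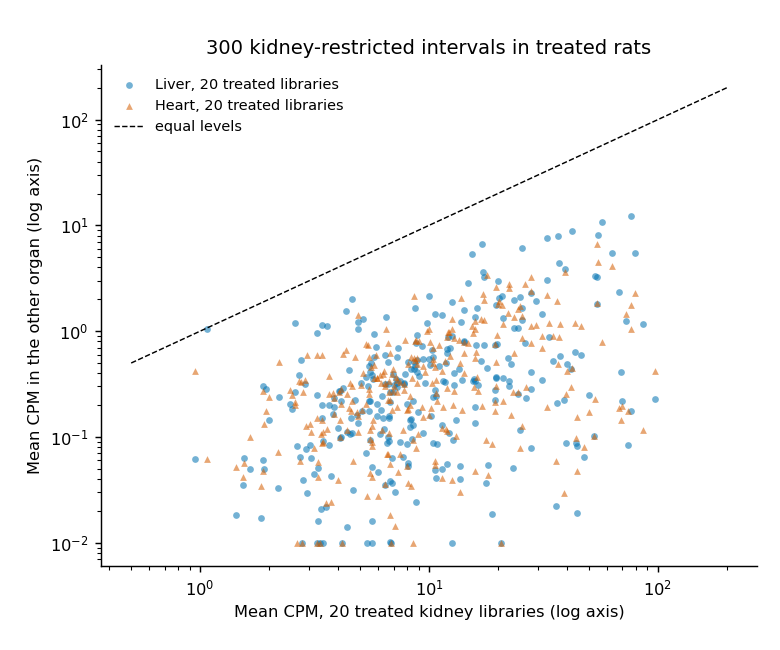
Each of the 300 intervals is plotted by its mean CPM in the 20 treated kidney libraries (x axis, log scale) and its mean in the 20 treated liver (circles) and 20 treated heart libraries (triangles; y axis, log scale, with means under 0.01 drawn at 0.01). Nearly all points lie well below the dashed line of equal levels.

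Many of these intervals carried less kidney signal after thioacetamide, at the high dose at both times. The members' summed CPM in the 8 h vehicle kidneys was 5574, 5989, and 7539 (lowest, median, highest of 5), and at the high dose it was 4345, 4389, and 4744. At 24 h it was 5489, 6483, and 6956 with vehicle and 3784, 4297, and 4506 at the high dose. The groups did not overlap at either time. The same vehicle libraries had helped to choose the members, which favors high vehicle sums. The other ranked intervals gave a different picture, with mean sums at 24 h of 42734 CPM (vehicle) and 45736 CPM (high dose) and ranges that overlapped.

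**Figure D2:**
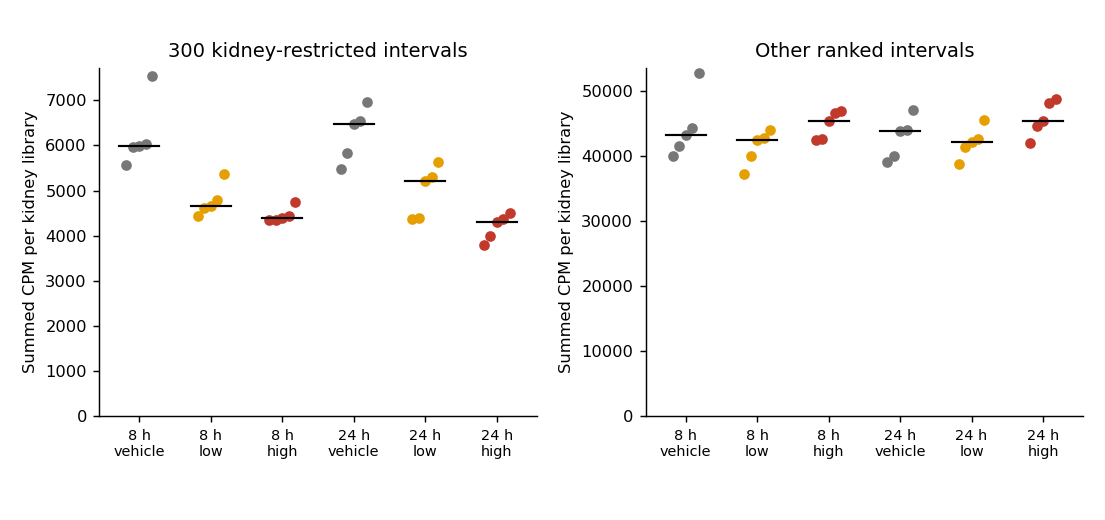
Summed CPM per kidney library (y axis, from 0) is shown for the 300 members (left) and for the other ranked intervals (right) in the 6 kidney groups, with 1 point per library and a line at the median of 5. Member sums at the high dose lie below all vehicle sums of the same time, whereas the sums of the other intervals overlap. The vehicle libraries had helped to choose the members.

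Of the 300 members, 59 fell and none rose at the high dose after 8 h (edgeR quasi-likelihood test, Benjamini-Hochberg adjustment over all targets tested). Among the intervals tested 1.3% fell, and among all targets 0.76% fell. After 24 h, 85 members fell and 2 rose, where 2.07% of the intervals tested fell and 1.11% rose; of all targets, 2.11% fell. The members' median log2 fold change was -0.56 at 8 h and -0.62 at 24 h, against 0.01 and -0.01 over all intervals tested. Below 0 were 81.7% of members at 8 h and 87% at 24 h, whereas over all intervals tested 48.9% and 50.4% were below 0. Counted without a model, every high-dose library lay below every vehicle library for 36.3% of members at 8 h and 34.7% at 24 h, where 4.31% and 3.38% of the intervals tested did so. Shares over the intervals tested were not matched to the members for abundance. The median count per vehicle kidney library was 257 for members and 7.61 over all intervals, tested or not.

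These vehicle kidney libraries had also served to choose the members, a choice that favors intervals with high vehicle values. The members were therefore chosen again from the vehicle libraries of the other time only, which left the compared libraries out of the scores. Of the 300 intervals so chosen, 57 fell and none rose at 8 h, and 81 fell and 2 rose at 24 h. The 300 kidney-restricted Ensembl transcripts with the highest scores by the same formula were taken with no transcript left out as most abundant. Of these, 14 fell at 8 h, and 60 fell and 2 rose at 24 h. Their medians were -0.10 and -0.33. Of all targets tested, intervals included, 0.76% fell at 8 h and 2.11% at 24 h. The share of transcripts alone was not counted. The difference between intervals and transcripts was not tested. At 8 h the number of calls moved with single libraries. It was 29 to 36 without MS-57, MS-58, MS-59, MS-98, MS-101, or MS-102. Without MS-38, MS-40, or MS-46 it was 41 to 43, and without MS-100 it was 75. With each library left out in turn, 27 of the 59 calls at 8 h and 69 of the 87 at 24 h were made every time. P-values here measure the spread between the libraries of a group.

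The 8 h and 24 h comparisons share no library, but vehicle libraries of both times had helped to choose the members, which favors falls. The comparisons called 34 members lower at both times, which is 57.6% of the 8 h list and 40% of the 24 h list. The share of all intervals tested that fell at both times was not counted. Another 25 fell at 8 h with no call at 24 h, and 51 fell at 24 h with no call at 8 h. Over the 300 members the log2 fold changes at the 2 times had a Pearson r of 0.54 and a Spearman rho of 0.50, as a description over intervals that share the libraries of each time.

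**Figure D3:**
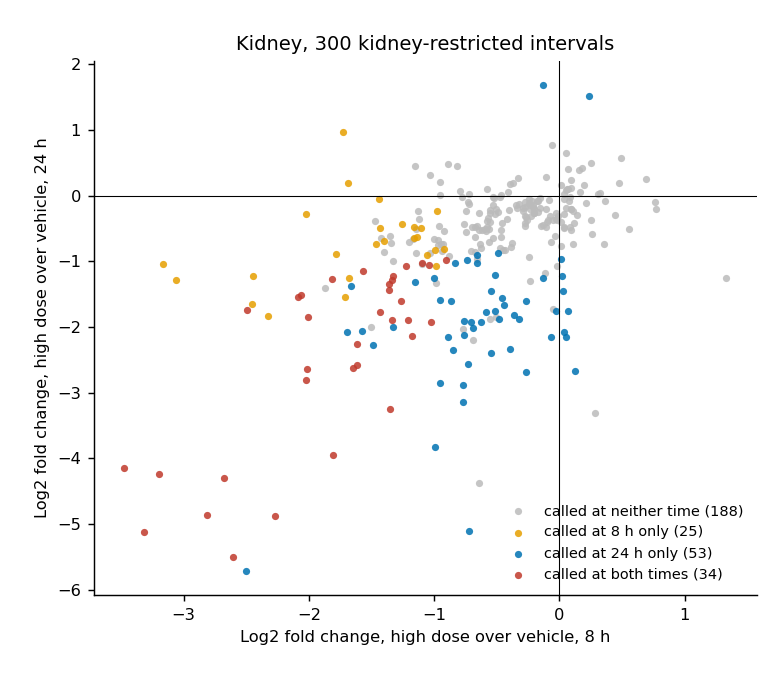
Log2 fold change of the high dose over vehicle in kidney at 8 h (x axis) and 24 h (y axis), 1 point per member, colored by the time at which it was called. Points gather in the lower left quadrant, where 226 of the 300 members were below 0 at both times. Among them are the 34 that fell at both times. The share of all intervals below 0 at both times was not counted.

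The largest falls reduced a kidney signal to a small fraction of its vehicle level. At chr6:42805519-42825518, the member with the 10th highest score, vehicle kidneys carried 28.3 to 109.15 CPM at 8 h and 34.3 to 101.13 CPM at 24 h. At the high dose the range was 10.9 to 20.3 CPM at 8 h and 1.92 to 3.25 CPM at 24 h, with no overlap at either time. The fall was 4.81-fold at 8 h (log2 -2.27 ± 0.36, SE, adjusted p = 0.00371) and 29.3-fold at 24 h (log2 -4.87 ± 0.32, SE, adjusted p = 4.44e-06). This was the only one of the 10 highest-scoring members that was called at 8 h. At 24 h chr1:32236553-32239644 (log2 -1.82 ± 0.24, SE, adjusted p = 0.000538) and chr20:14025570-14045171 (log2 -1.25 ± 0.16, SE, adjusted p = 0.000375) fell as well.

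The top-scoring interval, chr8:33520713-33540712, moved little. Its 24 h libraries held 85.7, 82.5, 78.5, 109.004, and 85.1 CPM with vehicle and 72.8, 60.5, 79.6, 77.8, and 68.8 CPM at the high dose. The values overlap narrowly, and the log2 fold change of -0.40 ± 0.12 (SE) did not reach the limits of a call (adjusted p = 0.0463). At 8 h it was -0.10 ± 0.11 (SE, adjusted p = 0.631). For chr11:67259273-67276956, the third in rank, the log2 fold changes were -0.26 ± 0.12 and -0.32 ± 0.17 (SE; adjusted p = 0.207 and 0.281). Among the 10 members with the highest TPM none was called at 8 h and 3 fell at 24 h.

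At 24 h the largest fall was that of chr5:115222586-115224763, with 19.4, 10.4, 2.21, 3.56, and 3.66 CPM in the vehicle kidneys and 0.186, 0.189, 0.0891, 0.290, and 0.0759 CPM at the high dose (log2 -5.71 ± 0.73, SE, adjusted p = 0.000426). No more than 5 counts per library lay behind the high-dose values, 18 counts over the 5 libraries against 870 in the vehicle group, so the size of this fall is known less well than its direction. Next was chr6:103978234-103998233, which held 6.02, 3.47, 11, 15.8, and 11.2 CPM with vehicle and 0.221, 0, 0.378, 0.344, and 0.190 CPM at the high dose (log2 -5.50 ± 0.58, SE, adjusted p = 0.000112). Here too the high-dose group rested on few counts, 25 in all. The next was chr10:96151507-96171506, where vehicle kidneys ranged from 2.0 to 22.3 CPM and high-dose kidneys from 0 to 0.402 CPM (log2 -5.11 ± 0.80, SE, adjusted p = 0.00154). None of the 3 overlapped between the groups.

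At 8 h the largest fall belonged to chr19:16586969-16606968. Its vehicle kidneys held 6.26, 7.14, 20.4, 9.35, and 15.9 CPM, and its high-dose kidneys 0.739, 0.947, 0.823, 1.32, and 1.34 CPM (log2 -3.48 ± 0.35, SE, adjusted p = 0.000199). The groups were far apart. Again chr10:96151507-96171506 followed, with 2.41 to 13.7 CPM against 0.325 to 0.830 CPM (log2 -3.32 ± 0.53, SE, adjusted p = 0.00394), a call that was lost without some single libraries. The third was chr13:110528396-110548395, where 11.7, 19.3, 21.9, 14.5, and 19.8 CPM stood against 1.59, 1.81, 1.61, 1.61, and 2.67 CPM (log2 -3.20 ± 0.22, SE, adjusted p = 1.18e-05). Both chr19:16586969-16606968 (log2 -4.15 ± 0.42, SE, adjusted p = 9.41e-05) and chr13:110528396-110548395 (log2 -4.24 ± 0.39, SE, adjusted p = 4.27e-05) had also fallen at 24 h.

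Only 2 members rose in kidney, both at the high dose after 24 h. At chr4:51105887-51120622 the vehicle kidneys held 7.62, 12, 9.0, 9.47, and 8.12 CPM, and the high-dose kidneys 33.1, 33.3, 22.4, 31.3, and 40.7 CPM. The rise was 3.21-fold (log2 1.68 ± 0.18, SE, adjusted p = 0.000121). At 8 h its high-dose range of 7.80 to 14.2 CPM overlapped the vehicle range of 10.8 to 14.9 CPM. At chr7:107870769-107890768 the vehicle values of 3.47 to 6.41 CPM were all below the high-dose values of 12.9 to 18.3 CPM, a 2.87-fold rise (log2 1.52 ± 0.19, SE, adjusted p = 0.000442).

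**Figure D4:**
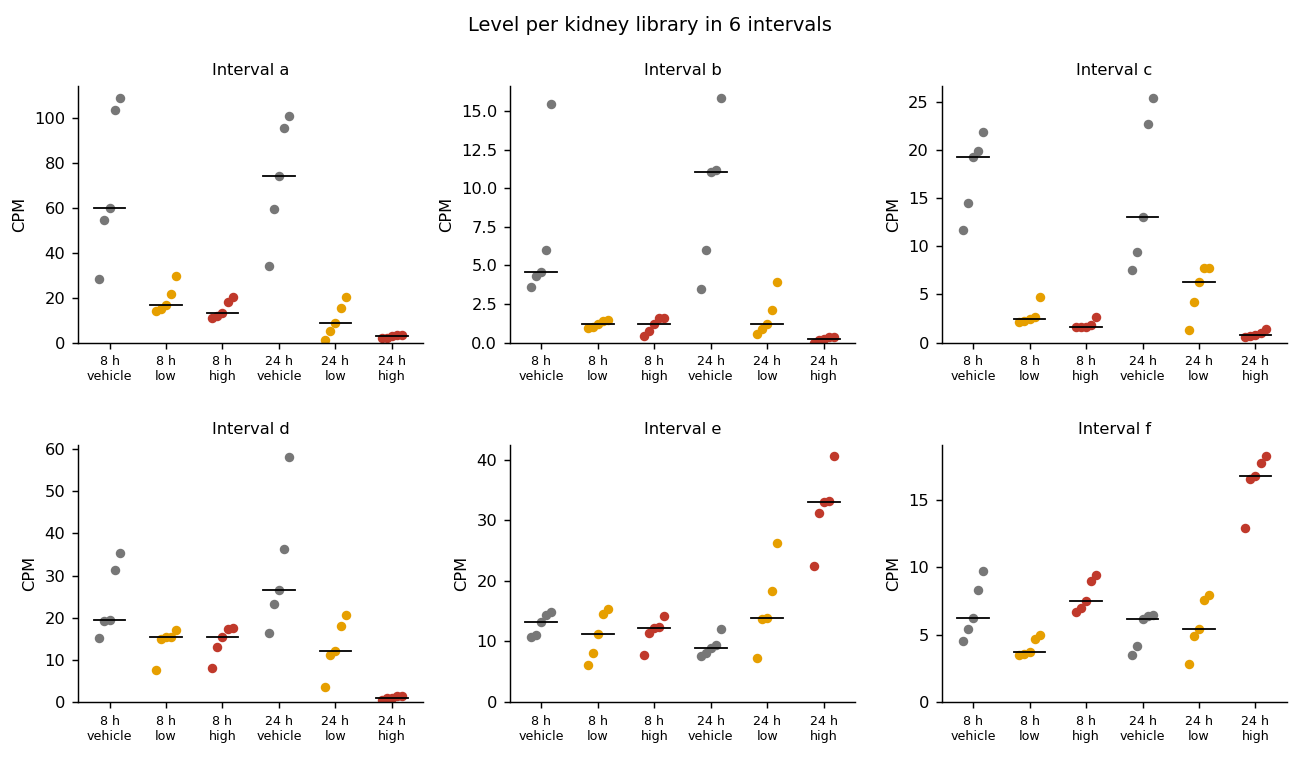
CPM per kidney library (y axis, from 0) in the 6 kidney groups for chr6:42805519-42825518 (interval a), chr6:103978234-103998233 (b), chr13:110528396-110548395 (c), chr19:52070252-52076609 (d), chr4:51105887-51120622 (e), and chr7:107870769-107890768 (f), with a line at the median of 5 libraries. The first 4 are low at the high dose after 24 h and the last 2 are high there.

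By length, at 24 h 55 of the 155 full-length members fell (35.5%) and 30 of the 145 shorter ones (20.7%). At 8 h these counts were 36 (23.2%) and 23 (15.9%). By score, 34 of the first 100 members, 28 of the second 100, and 23 of the third 100 fell at 24 h. None of these differences was tested.

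Neighboring members may share an underlying transcript and are not independent. Of the 21 runs, 16 had every member below 0 at 24 h and 4 had members of both signs, where 87% of all members were below 0. Whether neighbors moved alike was not tested. In 4 runs every member was called lower at 24 h. Those were the runs at chr20:14025570-14049964, chr1:82347868-82400577, chr10:13326423-13369597, and chr7:116534823-116583318. In the last of them chr7:116563319-116583318 had a log2 fold change of -2.39 and chr7:116534823-116554822 of -2.08 at 24 h. The 3 longest runs showed no call. Members of the run at chr10:84114158-84165449 had log2 fold changes between -0.27 and -0.18 at 24 h, those of the run at chr7:144568081-144647086 between 0.10 and 0.19, and those on scaffold KL567939.1 between -0.06 and 0.06. In all, 9 of the 48 members in runs fell at 24 h (18.8%), and 76 of the 252 that stood alone (30.2%).

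At the low dose the number of members called depended on the tool. The vehicle kidney libraries compared here had also helped to choose the members, which favors falls. After 8 h, 11 fell and none rose in edgeR, where 0.218% of the intervals tested fell, and DESeq2 called 45 members. After 24 h, only chr9:79358856-79373834 fell in edgeR, where 0.029% of the intervals tested fell, and DESeq2 called 24 members. With intervals alone in the edgeR fit, 20 and 4 members were called. The members' median log2 fold change was -0.43 at 8 h and -0.34 at 24 h; the medians over all intervals tested were also below 0, at -0.24 and -0.16, while those over transcripts were -0.03 and 0.02. The summed level of the members ran from 4434 to 5370 CPM at 8 h, below all vehicle libraries, and from 4369 to 5639 CPM at 24 h, overlapping them.

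The clearest low-dose falls, under the same limit of the choice, came after 8 h. At chr13:110528396-110548395 the low-dose kidneys held 2.26, 2.48, 2.68, 2.08, and 4.69 CPM, far below the vehicle values given above (log2 -2.66 ± 0.26, SE, adjusted p = 0.000684). At chr7:116715725-116735724 vehicle kidneys held 13.2, 10.9, 11.3, 14.2, and 12.6 CPM and low-dose kidneys 3.32, 3.68, 2.87, 4.78, and 2.81 CPM (log2 -1.87 ± 0.17, SE, adjusted p = 0.000574). The groups did not overlap, and at the high dose this interval fell at both times as well (log2 -2.50 ± 0.17, SE, adjusted p = 1.18e-05 at 8 h; log2 -1.74 ± 0.26, SE, adjusted p = 0.00128 at 24 h). At chr15:28456702-28476701 vehicle kidneys held 15.3, 13.8, 10.6, 13, and 13.5 CPM and low-dose kidneys 3.98, 3.19, 3.81, 3.38, and 4.40 CPM (log2 -1.87 ± 0.16, SE, adjusted p = 0.000314). Its high-dose kidneys at 8 h, at 4.89 to 9.21 CPM, were all above the low-dose ones. These 3 calls were made with each library left out in turn, which was so for 4 of the 11. The number called was 4 to 7 without MS-39, MS-40, MS-42, MS-45, MS-46, MS-48, MS-58, MS-59, or MS-108, and 14 without MS-100. The single member called by edgeR at 24 h, chr9:79358856-79373834, held 9.20 to 15.8 CPM with vehicle and 3.41 to 5.03 CPM at the low dose (log2 -1.53 ± 0.19, SE, adjusted p = 0.0074), a call that was lost without any one of MS-31, MS-32, MS-34, MS-35, MS-37, MS-50, MS-51, MS-52, or MS-103. Without MS-105, 3 members were called.

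The direct comparison of the high with the low dose used no library that had scored the members. At 24 h, 9 members fell and none rose, where 0.164% of the intervals tested fell, and the members' median log2 fold change was -0.22 against 0.17 over all intervals tested. The largest differences were at chr5:115222586-115224763 (log2 -5.08 ± 0.71, SE, adjusted p = 0.00603), chr19:52070252-52076609 (log2 -3.73 ± 0.48, SE, adjusted p = 0.00414), and chr17:81342597-81352200 (log2 -2.78 ± 0.30, SE, adjusted p = 0.00171). The last of these held 8.34, 3.62, 4.67, 9.18, and 6.20 CPM at the low dose and 1.28, 0.794, 1.03, 0.734, and 0.820 CPM at the high dose, with no overlap. Library MS-35 was the lowest of the 5 low-dose libraries at 24 h for 126 of the 300 members, and without it 24 members fell. For how many of all intervals MS-35 was lowest was not counted. Leaving out another library of either group, other than MS-106, gave 3 or 4 calls.

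At 8 h the doses differed less. Lower at the high dose were chr17:81342597-81352200 (log2 -1.37 ± 0.21, SE, adjusted p = 0.00532) and chr8:131750701-131770700 (log2 -1.26 ± 0.20, SE, adjusted p = 0.00732), where 0.0566% of the intervals tested fell. The latter held 10.8, 18.7, 9.61, 10.9, and 12.9 CPM at the low dose and 6.17, 4.54, 3.87, 5.16, and 5.76 CPM at the high dose. Higher at the high dose was chr7:107870769-107890768, with 3.59, 3.50, 5.0, 3.74, and 4.64 CPM against 9.45, 6.97, 7.46, 6.67, and 8.98 CPM (log2 1.0 ± 0.16, SE, adjusted p = 0.00684), where 0.716% of the intervals tested rose. None of the 3 calls was made without MS-39, MS-45, MS-48, MS-98, MS-101, MS-102, or MS-108, and only 1 without MS-57, although in chr8:131750701-131770700 and chr7:107870769-107890768 no library of one dose overlapped the other.

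The vehicle kidneys of 8 and 24 h, which also differed in feeding, were compared as well. Between 24 and 8 h no member was called, nor was any other interval tested (0%), in edgeR or in DESeq2, and 12 members had an unadjusted p under 0.05. The effect of the high dose did differ between the times for 13 members, where 0.252% of the intervals tested were called in either direction: the difference of the log2 fold changes (24 h minus 8 h) was negative for 11 and positive for 2. The most negative was chr19:52070252-52076609, where vehicle kidneys held 15.2, 19.5, 35.3, 19.2, and 31.3 CPM and high-dose kidneys 15.4, 17.4, 8.11, 13.1, and 17.3 CPM at 8 h. At 24 h vehicle kidneys held 26.6, 16.4, 23.3, 36.2, and 58 CPM and high-dose kidneys 0.862, 1.43, 1.01, 1.33, and 0.423 CPM. The groups overlapped at 8 h and were 34.4-fold apart at 24 h, and the difference between the times was -4.37 ± 0.49 (log2, SE, adjusted p = 3.75e-05). At chr8:85369504-85387833 (-2.78 ± 0.31, SE, adjusted p = 3.74e-05) and chr2:192094517-192114516 (-2.82 ± 0.51, SE, adjusted p = 0.00585) the fall was likewise larger at 24 h.

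The opposite order was seen at chr20:19675427-19695426. Its 8 h kidneys held 27.1, 25.5, 22, 27.8, and 54.4 CPM with vehicle and 7.31, 8.26, 9.84, 7.12, and 14 CPM at the high dose, with no overlap (log2 -1.73 ± 0.26, SE, adjusted p = 0.0027). At 24 h the vehicle range was 12.7 to 30.6 CPM and the high-dose range 20 to 59.6 CPM, and the groups overlapped. The difference between the times was 2.71 ± 0.44 (log2, SE, adjusted p = 0.00242). For chr4:51105887-51120622, described above, it was 1.82 ± 0.24 (log2, SE, adjusted p = 0.000318). The number of members called was 23 without MS-100 or MS-106 and 8 without MS-33, MS-36, MS-46, or MS-56.

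In liver, the main target organ of thioacetamide, 100 members at 8 h and 107 at 24 h passed the filter on low counts. A member that is low in vehicle liver can pass it through the high-dose libraries alone, and low vehicle liver levels had helped to choose the members, so both steps favor rises. After 8 h of the high dose, 15 of the 100 members tested rose and 9 fell, where 11.8% of the intervals tested rose and 9.94% fell. After 24 h, 9 of the 107 members tested rose and 17 fell, where 5.81% rose and 15.8% fell. These shares were near those of all intervals tested. With members chosen from the vehicle libraries of the other time, an alternative chosen after seeing the data, the 8 h comparison called 14 members higher and 10 lower, and the 24 h comparison 9 higher and 20 lower. The largest rises were those of chr7:129864413-129884412 at 8 h, from 0.0409, 0.10, 0.50, 0.212, and 0.0748 CPM with vehicle to 1.59, 3.37, 4.33, 3.12, and 2.49 CPM (log2 3.81 ± 0.55, SE, adjusted p = 0.000231), and of chr6:103978234-103998233 at 24 h, from 0 to 0.265 CPM in the 4 vehicle libraries to 0.377, 6.11, 2.50, 4.37, and 3.40 CPM (log2 4.26 ± 0.88, SE, adjusted p = 0.00254). Also at 24 h, chr7:115947334-115955775 went from 0.110 to 0.681 CPM to 2.96 to 14.5 CPM (log2 3.28 ± 0.62, SE, adjusted p = 0.00151). In all 3 the high-dose liver libraries were above the vehicle ones, and the first 2 had vehicle levels of 0.50 CPM or less.

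Only members tested in liver could be called in both organs, and the share over all intervals was not counted. At 24 h, chr6:103978234-103998233 and chr15:28456702-28476701 were called lower in kidney and higher in liver, and 6 members were called lower in both. The choice by high vehicle kidney and low vehicle liver levels favors the first of these patterns. The filter on low counts also favors rises in liver, as stated above. For chr15:28456702-28476701 the liver held 0.175 to 0.614 CPM with vehicle and 1.64 to 3.19 CPM at the high dose (log2 1.88 ± 0.32, SE, adjusted p = 0.00084), while the kidney fell from 6.68 to 19.4 CPM with vehicle to 3.48 to 5.61 CPM (log2 -1.60 ± 0.27, SE, adjusted p = 0.00249). At 8 h its liver rise was larger (log2 3.06 ± 0.44, SE, adjusted p = 0.000205). At 8 h 1 member was called lower in both organs and none in opposite directions. The difference between the organs was not tested. Lower in both organs at both times was chr4:117491222-117506231, with log2 fold changes of -1.36 ± 0.24 and -1.34 ± 0.20 in kidney (SE; adjusted p = 0.0069 and 0.00124) and -1.93 ± 0.38 and -2.03 ± 0.50 in liver (SE; adjusted p = 0.00167 and 0.00645).

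**Figure D5:**
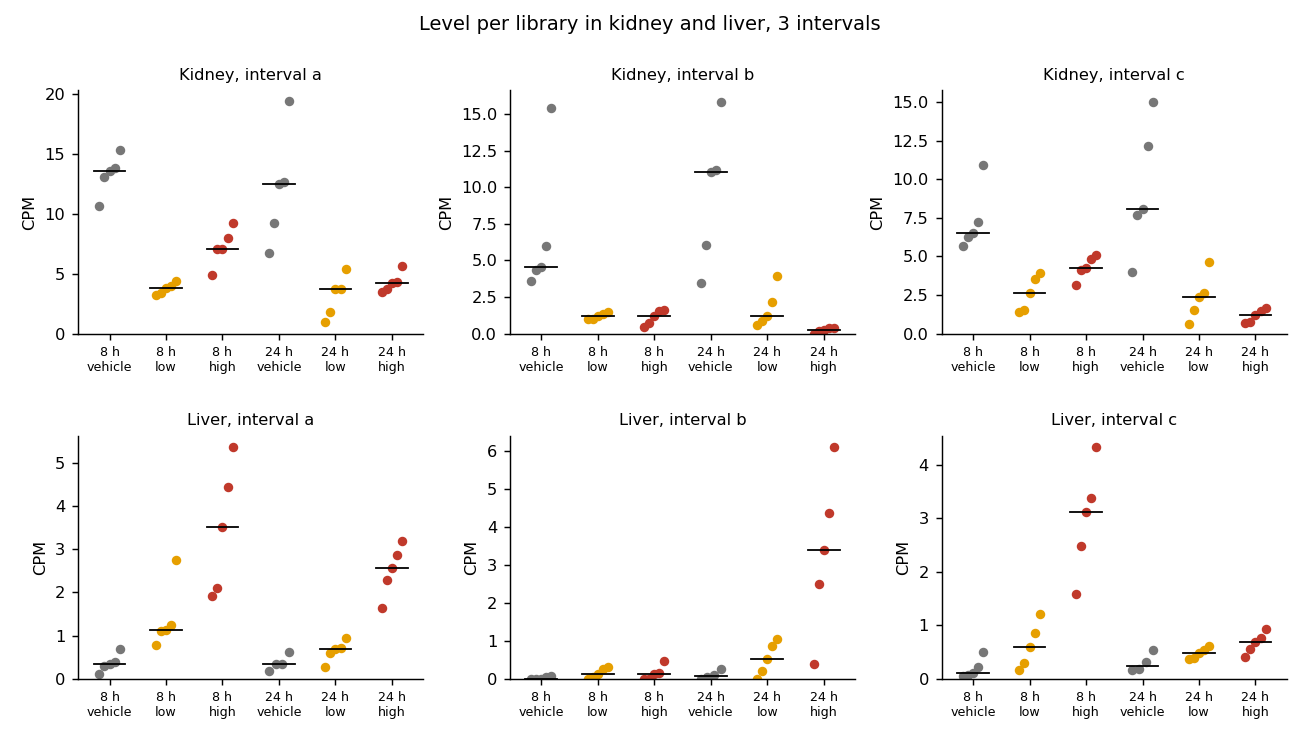
CPM per library (y axes, from 0 and scaled to each panel) in kidney (top) and liver (bottom) for chr15:28456702-28476701 (interval a), chr6:103978234-103998233 (b), and chr7:129864413-129884412 (c), with a line at each group's median. At 24 h the high-dose kidney libraries of all 3 lie below the vehicle ones, and the first 2 are higher in high-dose liver.

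The largest falls in liver came after 8 h at chr14:14426939-14438582, from 1.72, 1.08, 5.56, 1.69, and 0.772 CPM to 0.189, 0.323, 0.350, 0.203, and 0.378 CPM (log2 -3.01 ± 0.55, SE, adjusted p = 0.00103), and at chr7:97127279-97147278 (log2 -2.52 ± 0.42, SE, adjusted p = 0.000585). After 24 h they came at both members of a run on chromosome 11. There chr11:44050847-44070846 went from 1.73, 1.72, 2.41, and 1.16 CPM to 0.400, 0.397, 0.643, 0.384, and 0.564 CPM (log2 -2.72 ± 0.31, SE, adjusted p = 6.48e-05), and chr11:44076002-44089296 from 1.69, 1.40, 3.42, and 0.873 CPM to 0.289, 0.314, 0.521, 0.229, and 0.377 CPM (log2 -3.23 ± 0.44, SE, adjusted p = 0.000199). Neither overlapped its vehicle libraries. In kidney at 24 h chr11:44050847-44070846 fell too (log2 -1.07 ± 0.16, SE, adjusted p = 0.00126), and its neighbor was at -0.64.

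Heart showed no call among the members tested at either time of the high dose (edgeR quasi-likelihood test), where 0% of the intervals tested were called at 8 h and 0.251% at 24 h. An unadjusted p under 0.05 was reached by 8 members at 8 h and 10 at 24 h. The share of all intervals tested that did so was not counted, and no result is drawn from these counts. DESeq2 called 1 and 2 members.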

How the data were processed

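RNA from 90 libraries of liver, kidney, and heart was quantified by the authors with kallisto 0.42.2, per the submitters' processing notes, and each deposited table gives an estimated count and a TPM per target. The study's text used here does not describe how the genomic intervals were defined. Estimated counts were rounded to whole numbers for the tests; of the members' kidney values, 9.93% were whole within 0.01. Library totals set the precision of low values, and p-values cover the spread between libraries only.

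Groups came from the labels. Comparisons were fitted over all targets passing edgeR's expression filter, with TMM scaling and edgeR 4.0.16's quasi-likelihood test (R 4.3.3), on the libraries compared. A call needed a Benjamini-Hochberg adjusted p of at most 0.01 and a natural-log fold change of at least 0.6 (log2 0.87); the difference between times needed only the p. Named were the members with the 10 highest scores, the 10 highest TPM, the largest called changes per comparison, the longest runs, and the intervals at the limit; others were chosen after their values were seen. The members and lists were chosen with earlier results of these data known. The fits were tested on simulated data. DESeq2 1.42.0, other filters and scalings, and leaving out libraries were alternatives. Library numbers above 90, whose meaning is not given in the sources used here, were fitted as a term in 1 alternative. Organ markers and gene lists were not used, because transcripts were not paired with genes here.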

Additional observations from a re-analysis of the deposited data

Results flagged for a closer look

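Of 90 groups of values examined (library sums and 12 intervals), 11 held 1 library far from its other libraries; chance flags about 1 in 20 groups. In the members' summed level these were MS-100 among the 8 h vehicle kidneys (7539 CPM), MS-57 among the 8 h high-dose kidneys (4744 CPM), and MS-62 among the 24 h low-dose hearts (232 CPM), each the highest of its group. The other ranked intervals also summed highest of the group in MS-100 (52744 CPM) and MS-62 (37977 CPM), but not in MS-57 (46558 CPM). MS-100 was also highest at chr1:32236553-32239644 (92.0 CPM), and MS-57 at chr13:110528396-110548395 (2.67 CPM).

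Among the 8 h low-dose kidneys MS-108 was highest at chr10:96151507-96171506 (3.66 CPM) and chr13:110528396-110548395 (4.69 CPM), and MS-42 was lowest at chr19:52070252-52076609 (7.55 CPM). The lowest 24 h low-dose kidney at chr19:16586969-16606968 was MS-35 (0.589 CPM). Among vehicle kidneys, MS-58 was highest at chr6:103978234-103998233 at 8 h (15.4 CPM) and MS-50 at chr8:33520713-33540712 at 24 h (109.004 CPM).

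For 13 members the effect of the high dose in kidney differed between the times by the test of that difference. It was more negative at 24 h at chr19:52070252-52076609 (log2 difference -4.37), chr2:192094517-192114516 (-2.82), and chr8:85369504-85387833 (-2.78), and more positive at chr20:19675427-19695426 (2.71) and chr4:51105887-51120622 (1.82).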

How the results depend on the processing

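DESeq2 in place of edgeR called more members: 45 (low dose, 8 h), 24 (low dose, 24 h), 89 (high dose, 8 h), 14 and 46 (high against low dose, 8 and 24 h), 36 (difference between times), and 1 and 2 (heart, 8 and 24 h). With intervals alone in the fit, 20 and 4 were called at the low dose and 8 and 25 between the doses. A term for library numbers above 90 gave 17 and 0 at the low dose and 0 and 15 between the doses. The cause was not tested. Leaving out 1 library in turn gave 4 to 14 and 0 to 3 members (low dose, 8 and 24 h), 29 to 75 and 72 to 98 (high dose), 0 to 4 and 3 to 24 (between the doses), 8 to 23 (difference between times), 21 to 28 and 20 to 27 (liver), and 0 to 1 (heart at 24 h, 1 without MS-84), with fewer samples in each fit. The 24 h high-dose count stayed within 83 to 110 under the other alternatives. Of 793 alternative values for 51 single results, 684 kept direction and side of the threshold, most others no longer passed, and none reversed. A score pseudocount of 0.1 kept 250 members and one of 1 kept 268. The labels carry no replicate numbers that link libraries, but library numbers up to 90 that are 30 or 60 apart always shared treatment and time. In a replicate block by these numbers, added after seeing the data, kidney was called over liver for 293 members and over heart for 299, as in the same 49 libraries with no block. The dose comparisons use different rats, and no paired analysis was possible because each rat received 1 treatment. Without MS-9, 295 members were called over liver. Levels near 0 in liver, heart, and some high-dose kidneys rest on few counts, so the size of those changes is imprecise.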
